A study of Caenorhabditis elegans with 2 samples.

Results

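The 9 genes described here set how much fat a worm makes, how it is desaturated and when it is burned: sbp-1, mdt-15, fat-2, fat-5, fat-6, fat-7, acs-2, pod-2 and fasn-1. They were taken by name, and all 9 were found among the 19973 nuclear protein-coding genes of the Ensembl models. For each gene, the strongest peak with its summit from 1000 bp upstream to 500 bp downstream of an annotated transcript start was recorded (a start peak), together with every peak whose summit lay inside the gene (a body peak). The peaks mark chromatin recovered with NHR-90, a nuclear hormone receptor, fused to eGFP in whole hermaphrodites of strain OP484. Worms had been synchronized by bleaching and starvation at the first larval stage and were taken as young adults 64 h later, per the labels. The labels describe a stable transgenic line whose NHR-90 carries GFP-FLAG at its C-terminus, and an immunoprecipitation with an antibody to GFP, while a separate antibody field names nhr-90. There was 1 group of 2 biological replicates, so no conditions were compared, no tissue can be assigned to a peak, and no test was made.

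In worms, as in other animals, fatty acids are built by acetyl-CoA carboxylase, encoded by pod-2, and fatty acid synthase, encoded by fasn-1. The desaturases FAT-5, FAT-6 and FAT-7 then introduce the first double bond into saturated fatty acids, FAT-5 acting mainly on palmitic acid and the FAT-6 and FAT-7 pair on stearic acid. FAT-2 adds the next double bond to the oleic acid they make. ACS-2, an acyl-CoA synthetase, activates fatty acids for mitochondrial β-oxidation and is known for its induction by fasting. SBP-1 is the worm homologue of the vertebrate SREBP factors and MDT-15 is a Mediator subunit. Both are known to keep the desaturase genes expressed, MDT-15 partly through the nuclear hormone receptor NHR-49.

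Peaks came from 4 deposited lists on build ce11. One list was cut by the irreproducible discovery rate (IDR), which scores how alike the replicates rank a peak, and it held 1441 peaks. A list called on both replicates together, the pooled list, held 30000, and the replicate lists held 30000 and 26622. The 1441 IDR peaks were the first 1441 of the pooled list by signal, down to 98.9, while the pooled list ran down to 15.1. The authors' records title the pooled and replicate lists as peaks and background, so a low-ranked peak is not taken here as a binding site. Signal is the authors' value for a peak, and it was read within a list or turned into a rank, with 1 for the highest signal. The numbers of reads behind the peaks are unknown. In the pooled list 97.8% of summits lay at the midpoint of the peak.

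None of the 9 genes had an IDR peak at a start or in its body. Of all protein-coding genes, 3.62% had an IDR summit at a start and 2.65% had one in the body, and the counts of 0 are read against these low shares. In the pooled list 8 of the 9 had a start peak (42% of all genes) and 8 had a body peak (42.5% of all genes), fat-7 being the gene without either. In replicate 1 the counts were 8 at a start (42.3% of all genes) and 8 in the body (44.4%). In replicate 2 they were 8 at a start (41.8% of all genes) and 9 in the body (42.1%), where fat-7 entered with low peaks. The 9 genes had a median length of 2523 bp against 2027 bp for all genes, and long genes offer more room for body peaks. Members had a median of 1.07 pooled body peaks per kb. The median over all genes was 0, the value of every gene without a pooled body peak, because only 42.5% had one.

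**Figure D1:**
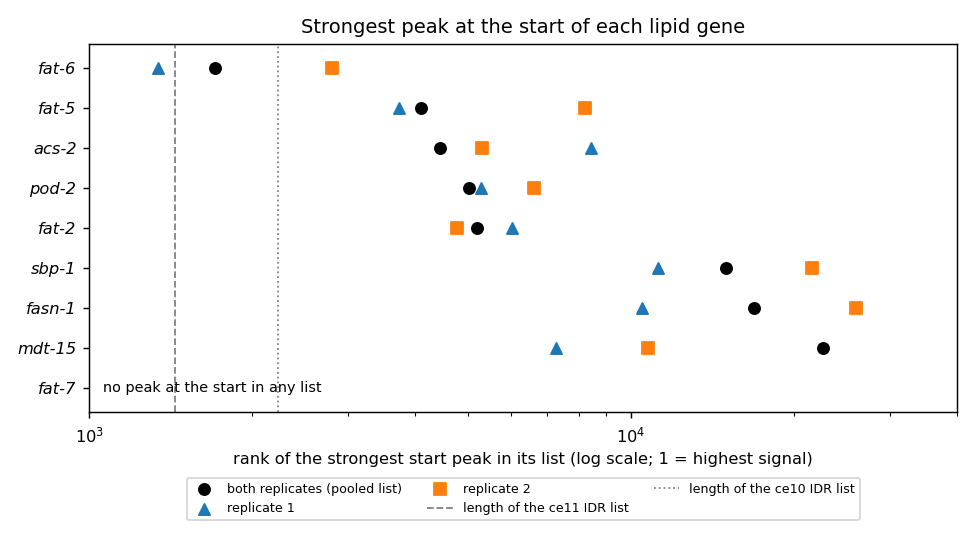
Rank of the strongest start peak of each gene (log axis, 1 is the highest signal) in the pooled list (circles) and in replicate 1 and replicate 2 (triangles and squares), with the lengths of the ce11 and ce10 IDR lists as dashed and dotted lines. Only the replicate 1 peak of fat-6, at rank 1340, lies left of the dashed line, and fat-7 has no point.

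The start peaks fell into 3 levels. That of fat-6 stood alone with a pooled signal of 89.8, higher than that of 95.5% of protein-coding genes and at 90.8% of the lowest signal in the IDR list. Those of fat-5, acs-2, pod-2 and fat-2 followed within a narrow range, with signals of 54.0, 51.8, 48.5 and 47.6 and percentiles among genes from 89.7 down to 87.3. Those of sbp-1, fasn-1 and mdt-15 were low, with signals of 26.6, 24.6 and 19.8 and percentiles of 71.7, 69.6 and 63.8. The median percentile of the 9 genes was 87.3, against 29.0 for all genes, which is the value that every gene without a pooled start peak shares. Among genes with a start peak, the median signal was 48.1 for the members and 34.2 for all.

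Within the middle level the order depended on the replicate, and the strongest start peak of a gene was not always the same site in both. In replicate 1 the ranks were 3727 for fat-5, 5278 for pod-2, 6020 for fat-2 and 8449 for acs-2. In replicate 2 they were 4780 for fat-2, 5312 for acs-2, 6613 for pod-2 and 8217 for fat-5. The replicate 2 peak of fat-2 at rank 4780 lay past the 3′ end of the gene, inside the window of its internal start, while its coding exon peak at 279 bp ranked 8543 there, next to fat-5. The gene with the highest start peak, fat-6, was first of the 9 in both replicates, at rank 1340 in replicate 1 and rank 2804 in replicate 2, again at different sites. In replicate 1, mdt-15 at rank 7270 came before acs-2. The lowest pair, sbp-1 and fasn-1, changed places between the replicates.

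**Figure D2:**
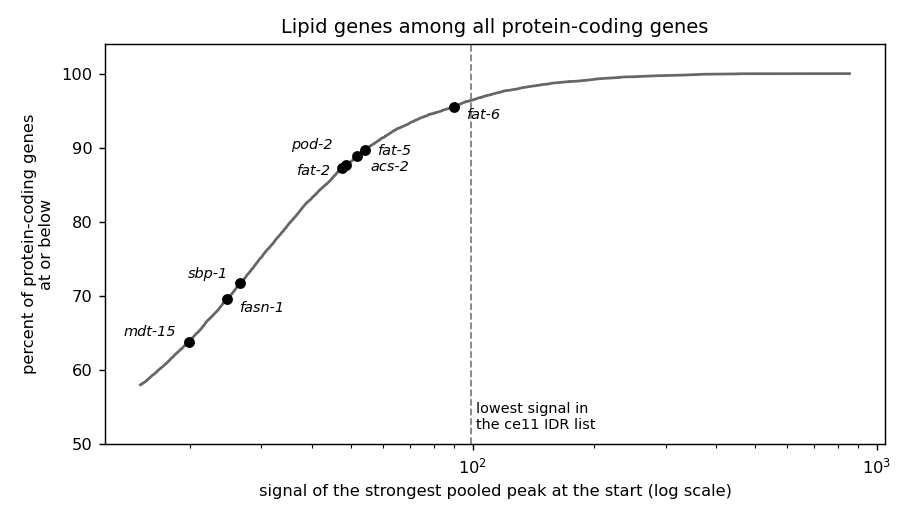
Percent of protein-coding genes whose strongest pooled start peak has at most a given signal (log axis, line), with the 8 genes that have a start peak as points and the lowest signal in the ce11 IDR list as a dashed line at 98.9. All 8 points lie left of the dashed line, fat-6 nearest to it at 89.8.

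The stearic acid desaturase gene fat-6 (WBGene00001398, chrIV:11913692-11915687, minus strand) had the only IDR peak that touched a member, and its summit lay just past the end of the gene. This peak, chrIV:11913498-11913707, had a signal of 158 and rank 555, and it shared 16 bp with the last bases of the gene. Its summit at base 11913616 was 76 bp beyond the 3′ end, at no annotated gene, and the nearest protein-coding start was that of fat-6 at 1055 bp. The gene on the other side, VZK822L.2, ends at base 11913202 and points toward fat-6. Both replicates had the peak, with a summit at the same base in replicate 1 (signal 70.6, rank 1008) and at base 11913602 in replicate 2 (signal 87.3, rank 329). It is thus among the first 1441 peaks of each replicate on its own. By overlap with the gene body in place of the summit, fat-6 was the 1 member with an IDR peak, and 4.04% of all genes had one. The sequence at the summit is shown because no peak in or within 200 bp of any of the 9 genes had a higher signal. It covers chrIV:11913566-11913666 on the strand of fat-6 and holds no match to the 8 motifs searched, so no base is in capitals.
fat-6 3′ flank: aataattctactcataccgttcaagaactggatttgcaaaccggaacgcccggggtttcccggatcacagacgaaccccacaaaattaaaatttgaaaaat

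Within the window of the rule, fat-6 had 4 pooled start peaks along its 3 annotated starts. The strongest had its summit at base 11914526, in a coding exon, 145 bp downstream of the innermost start and 1161 bp downstream of the outermost. Its signal of 89.8 gave rank 1707 in the pooled list, and summits of both replicates lay within 100 bp, at rank 1739 with a signal of 53.9 in replicate 1 and at rank 2804 with a signal of 32.4 in replicate 2. The next, 288 bp into the gene in an intron, had a pooled signal of 67.8 and was the strongest of fat-6 in replicate 1 (61.5, rank 1340), while replicate 2 had no summit within 100 bp. In the pooled list these were the only start or body peaks of the 9 genes at its highest deposited significance (q = 0.00162), which 2783 pooled peaks shared. Upstream of the outermost start lay a peak at −261 bp with a signal of 61.3 and a peak at −38 bp with a signal of 53.7. The former was found in both replicates (32.3 and 28.5). Its summit lay 1 bp from the start of the short neighbouring gene ZK822.9, so it cannot be given to fat-6 alone. The peak at −38 bp and the intronic peak also lay in the start window of ZK822.9. A body peak at 1865 bp (52.4) overlapped the interval of the peak past the 3′ end.

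The start peak of fat-6 at rank 1707 was outside the ce11 IDR list and inside the one on the older build ce10. That list was longer, with 2232 peaks and a lowest signal of 76.2. A peak with the same chromosome, width and summit offset and with a signal within 0.001% was found there at rank 1708, with a signal of 89.8. By the same match 1415 of the 1441 ce11 IDR peaks had exactly 1 partner in the ce10 list, 5 had more and 21 had none. Taking the first 2232 pooled peaks on ce11 gave 1 member with a start peak, fat-6 (5.76% of all genes). Among the first 1441 peaks of replicate 1 alone fat-6 was also the 1 member with a start peak (3.74% of all genes). That was its intronic peak at rank 1340, while the peak of pooled rank 1707 ranked 1739 in replicate 1. The first 1441 of replicate 2 had 0 members (3.49% of all genes).

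The paralogue fat-7 (WBGene00001399, chrV:7151353-7153146, minus strand) encodes a desaturase with the same substrate, and it had no start peak in any list. Its body held no peak in the IDR, pooled or replicate 1 lists, and in replicate 2 it held low peaks with a signal of 13.6 (rank 15537) and below (rank 19093). The exon under the strongest start peak of fat-6 is nearly the same in both genes. Over 101 bases, 94 (93.1%) were identical without a gap, with a longest identical run of 41 bases. In fat-7 this stretch begins 787 bp downstream of the only annotated start, beyond the 500 bp of the start window. A summit there could count only as a body peak, while in fat-6 an internal start makes it a start peak. How reads that match both genes were treated in calling these peaks is not given in the sources used here, and their part in the peaks of either gene was not tested. The other fat-6 windows aligned to fat-7 and its flanks less closely. At −38 bp 81 of 101 bases aligned with 69.1% identity, and at 1865 bp 79 did with 74.7%. The stretch matched by the −38 bp window began 1736 bp downstream of the fat-7 start and ran across its 3′ end, so it was not the corresponding upstream region. At the −261 bp peak 35 bases aligned, at the intronic peak 17, and at the peak past the 3′ end 17. The 2 exons are printed on the strand of the genes, chrIV:11914476-11914576 and chrV:7152259-7152359, with the differing bases in capitals.
fat-6: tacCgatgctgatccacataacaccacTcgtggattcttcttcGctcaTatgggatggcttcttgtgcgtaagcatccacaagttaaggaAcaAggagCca
fat-7: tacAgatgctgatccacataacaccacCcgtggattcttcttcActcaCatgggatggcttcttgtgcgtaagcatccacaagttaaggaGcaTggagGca

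**Figure D3:**
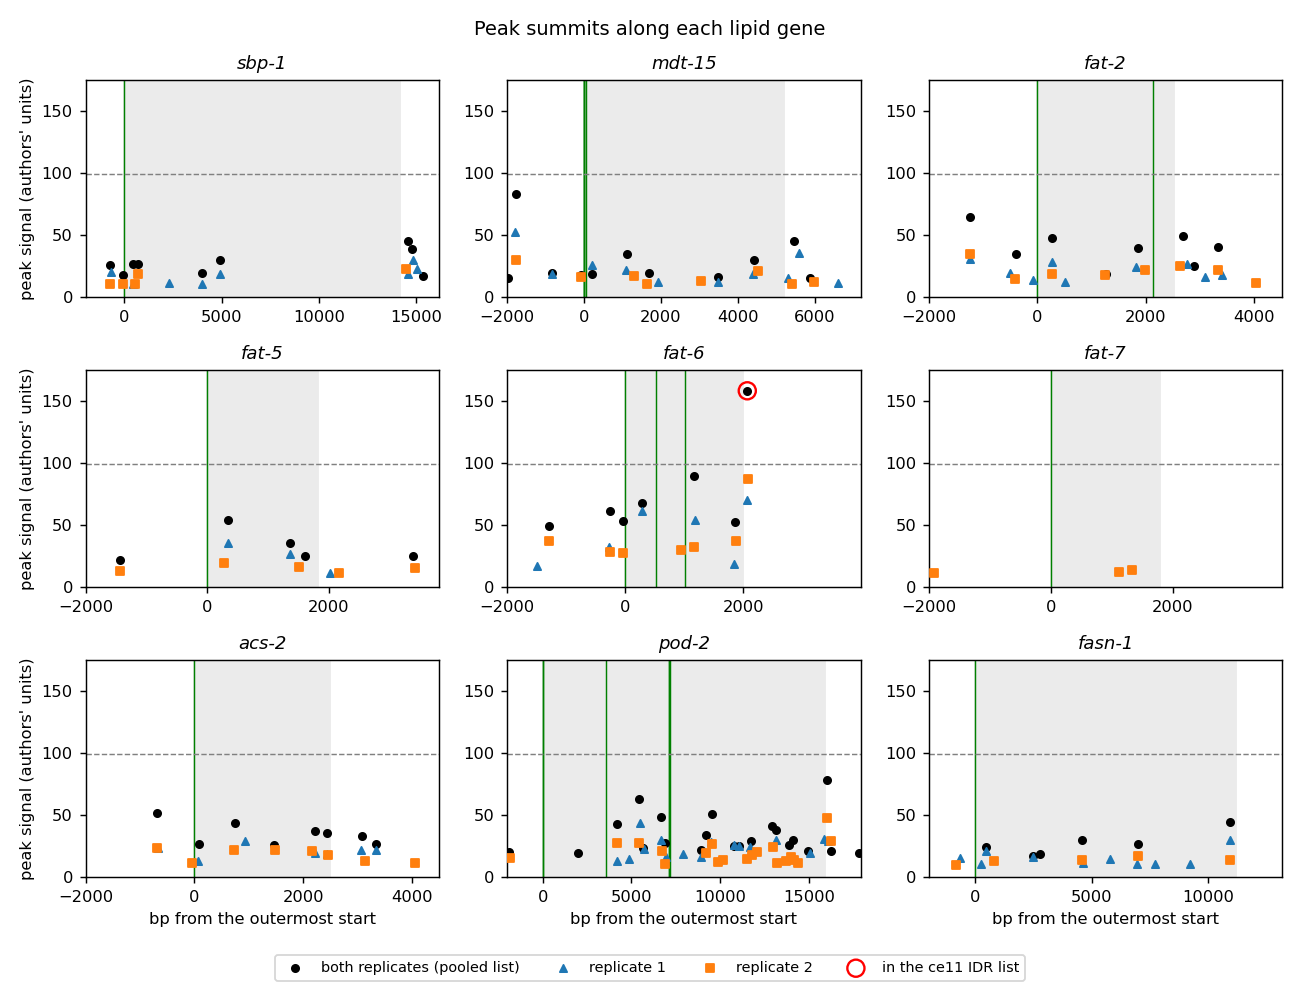
Signal of every peak summit (authors' units) against distance from the outermost start for each of the 9 genes, in the pooled list (circles) and the replicate lists (triangles, squares), with the gene shaded, annotated starts as green lines and the lowest IDR signal, 98.9, dashed. The single circled peak is the IDR peak past the 3′ end of fat-6, with a signal of 158, and the fat-7 panel holds replicate 2 peaks only.

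The palmitic acid desaturase gene fat-5 (WBGene00001397, chrV:17725004-17726818, plus strand) had 1 pooled start peak, in a coding exon 341 bp downstream of its start. The pooled signal was 54.0 (rank 4088, q = 0.00722), with 35.4 in replicate 1 and 19.2 in replicate 2. Weaker body peaks lay at 1355 bp (35.5) and 1600 bp (24.8). The nearest IDR summit was 3092 bp upstream of the start, with a signal of 102 (rank 1358), and the protein-coding start nearest to that summit was the one of str-77.

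The oleic acid desaturase gene fat-2 (WBGene00001394, chrIV:13323873-13326395, plus strand) had 4 pooled start peaks along 2 annotated starts. The strongest, 279 bp downstream of the outer start in a coding exon, had a pooled signal of 47.6 (rank 5196, q = 0.0253), 28.1 in replicate 1 and 18.8 in replicate 2. A peak at −393 bp, upstream of the outer start, had a pooled signal of 35.1 (rank 9261, q = 0.164). A summit within 100 bp was found in replicate 2 only (14.7). A replicate 1 peak (19.5) also overlapped the pooled peak, with its summit farther off, at −500 bp. The window of 101 bases at this upstream peak held AGGTCA, a core sequence of many nuclear receptor sites, on the opposite strand, printed below as TGACCT. Farther upstream, outside the start windows, a peak at −1246 bp had a pooled signal of 64.7, with 30.6 in replicate 1 and 34.6 in replicate 2. The nearest IDR summit lay 5043 bp upstream of fat-2 (143, rank 698). It was 19 bp past the 3′ end of the neighbouring fat-1, which encodes the omega desaturase of the same pathway.

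The fatty acid activating gene acs-2 (WBGene00009221, chrV:15567394-15569897, plus strand) had its strongest start peak upstream of the gene, at −677 bp, where those of fat-2, fat-5 and fat-6 lay downstream of a start. Its pooled signal was 51.8 (rank 4447, q = 0.0114), with 23.8 in replicate 1 (rank 8449) and 23.7 in replicate 2 (rank 5312) and summits within 100 bp in both. A second start peak, 88 bp downstream of the start in a coding exon, was low (26.7, rank 14892, q = 0.392) and held the E-box CACGTG. Along the body lay 4 further peaks, with signals from 43.3 at 757 bp down to 25.9 at 1474 bp. Those at 2223 bp and 2449 bp also fell in the start window of the next gene, lsm-5.

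The acetyl-CoA carboxylase gene pod-2 (WBGene00004076, chrII:1136785-1152705, plus strand) has 6 annotated starts over 15921 bp. No pooled start peak lay at its outermost start. The strongest start peak, 445 bp upstream of an internal start and 6670 bp into the gene, had a signal of 48.5 (rank 5017, q = 0.0228), with 29.9 in replicate 1 and 21.3 in replicate 2. It held AGGTCA. A stronger peak lay outside the start windows, in an intron at 5452 bp, with a pooled signal of 63.0 (rank 3117, q = 0.00209), 44.0 in replicate 1 and 27.6 in replicate 2. In all 17 pooled body peaks spread along the gene. A peak 121 bp past the 3′ end, with its summit at base 1152826, was stronger than all of them at 78.2 (rank 2137), with 28.8 in replicate 1 and 47.8 in replicate 2. It had a partner at rank 2137 in the ce10 IDR list.

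Sequences at 5 of these start peaks are shown as 101 bases centred on the summit, on the strand of the gene, with motif matches in capitals. They are the strongest start peaks of fat-5, acs-2 and pod-2, and an acs-2 and a fat-2 peak that held CACGTG and AGGTCA. Their places are chrV:17725295-17725395, chrV:15566667-15566767, chrV:15567432-15567532, chrIV:13323430-13323530 and chrII:1143405-1143505 on ce11.
fat-5 at 341 bp: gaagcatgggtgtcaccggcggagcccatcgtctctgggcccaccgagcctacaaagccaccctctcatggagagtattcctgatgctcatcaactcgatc
acs-2 at −677 bp: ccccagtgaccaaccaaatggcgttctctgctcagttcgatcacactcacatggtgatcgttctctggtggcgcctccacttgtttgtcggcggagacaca
acs-2 at 88 bp: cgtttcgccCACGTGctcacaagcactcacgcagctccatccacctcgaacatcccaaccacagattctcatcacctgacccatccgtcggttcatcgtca
fat-2 at −393 bp: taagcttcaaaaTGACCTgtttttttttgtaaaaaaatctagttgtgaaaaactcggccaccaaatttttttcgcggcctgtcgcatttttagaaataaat
pod-2 at 6670 bp: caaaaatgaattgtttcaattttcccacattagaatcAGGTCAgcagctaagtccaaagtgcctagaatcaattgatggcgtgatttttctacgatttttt

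The 8 motifs were searched on both strands in the 101 bases at the 20 pooled start peaks of the members. AGGTCA was in 2 of the 20, against 4.01% of nuclear IDR peaks and 2.75% of nuclear pooled peaks. CACGTG was in 1 (5.0%), against 5.49% and 3.08%, and GAGAGAG in 1, against 7.45% and 3.44%. The GATA sequences TGATAA and AGATAA were in 2 and 1, against 10.8% and 3.8% of IDR peaks and 9.85% and 5.09% of pooled peaks. AGATAA and GAGAGAG overlapped each other in the only member window that held them, at −84 bp of mdt-15. CAAAGTC, the mammalian SREBP site TCACNCCAC and the heat shock element (inverted repeats of TTC) were in none of the 20, and they were in 1.34%, 0.422% and 0.703% of IDR peaks. With 20 windows, 1 match is 5.0%, so these shares do not separate the members from either list. The median GC content was 36.1% at the member start peaks, 41.6% at all pooled peaks and 49.5% at IDR peaks. A motif match describes the letters under a peak and shows no binding.

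The regulators sbp-1 and mdt-15 had some of the lowest start peaks. At sbp-1 (WBGene00004735, chrIII:11428367-11442566, minus strand) the pooled start peaks lay at 441 bp (26.6), −751 bp (25.9) and −74 bp (18.3), and the strongest body peak, 4906 bp into the gene in a coding exon, reached 30.0. In the pooled list, deposited q-values of the sbp-1 peaks ran from 0.293 to 0.658. At mdt-15 (WBGene00007016, chrIII:5828557-5833751, minus strand) the start peaks lay at −823 bp (19.8), 214 bp (18.9) and −84 bp (18.4), and the window is shared with the starts of R12B2.6 and R12B2.13. For both regulators the strongest start peak in each replicate lay at a different position from the pooled one. Replicate 1 had 25.7 at rank 7270 for mdt-15 and replicate 2 had 16.7 at rank 10764, both better ranks than the pooled 22592. Farther upstream of mdt-15, outside its start windows, a peak at −1767 bp was much stronger, with a pooled signal of 83.0. Peaks lay nearby in replicate 1 (−1801 bp, 52.7) and replicate 2 (−1775 bp, 29.7). The nearest IDR summit to mdt-15 was 4720 bp upstream of its outermost start (110, rank 1173), and the one nearest to sbp-1 was 21401 bp away.

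The fatty acid synthase gene fasn-1 (WBGene00009342, chrI:8975366-8986540, minus strand) had a single pooled start peak, in an intron at 437 bp, with a signal of 24.6 (rank 16866, q = 0.453). In replicate 1 the strongest start peak was at 454 bp (21.3), and in replicate 2 it was at −832 bp with a signal of 9.62, close to the lowest of that list at 9.44. The strongest peak of the gene lay in the 3′ UTR at 10933 bp, with a pooled signal of 44.8 (rank 5872, q = 0.0425), 29.9 in replicate 1 and 13.9 in replicate 2. A body peak outside the start windows was stronger than the strongest start peak at sbp-1, mdt-15, pod-2 and fasn-1.

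Over all 9 genes there were 54 pooled peaks at a start or in a body. Their summits lay in coding exons in 29 cases, in introns in 14, in 3′ UTRs in 3 and outside the gene in 8. A peak of each replicate overlapped 42 of them (77.8%, against 59.9% of all nuclear pooled peaks), 8 overlapped a peak of replicate 1 only, 3 of replicate 2 only and 1 of neither. A closer match was rarer: 21 (38.9%) had a summit of both replicates within 100 bp, against 31.6% of all nuclear pooled peaks, and 9 of the 20 start peaks did. None of the 54 had a tRNA, snoRNA or snRNA gene within 100 bp. The median distance from a start to the nearest IDR summit was 13304 bp for the members, from 1055 bp for fat-6 to 176720 bp for pod-2, and 33147 bp for all genes.

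Because the strongest sites of fat-6 and pod-2 lay just past the gene, the 200 bp beyond each 3′ end were counted after these values were seen. An IDR summit lay there in 1 of the 9 genes, fat-6 (1.06% of all genes), and a pooled summit in 3, namely fat-2, fat-6 and pod-2 (12.8% of all genes). The fat-2 peak was 172 bp past the end, with a pooled signal of 49.7. Its summit was 558 bp from the internal fat-2 start, just outside the start window. Its replicate 2 partner was the peak at rank 4780, counted above as a start peak. In all 3 this peak was stronger than the strongest start peak of the gene. Of 113 other lipid genes, 3 (2.65%) had an IDR summit there: fat-1 (143), acdh-1 (206) and atgl-1 (124), the last encoding a fat-droplet lipase, with its summit 80 bp from the start of nas-4. A pooled summit lay there in 36 (31.9%). Peaks farther past the 3′ end were outside these counts. At mdt-15, 5195 bp long, a pooled peak lay 5449 bp from the outermost start (45.3). At sbp-1, 14200 bp long, pooled peaks lay at 14581 bp (45.5) and 14788 bp (38.7). Each was stronger than the strongest pooled start peak of its gene, 19.8 for mdt-15 and 26.6 for sbp-1.

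Other genes of lipid metabolism were counted by the same rule. Of the 113 other lipid genes in 8 groups, 7 (6.19%) had an IDR start peak, against the 3.62% of all genes given above, and 74 (65.5%) had a pooled one. The highest was dgat-2, a diacylglycerol acyltransferase of fat storage, at −863 bp (155, rank 586), although the start nearest to that summit was the one of fbxa-108 at 55 bp. Next came acdh-1, an acyl-CoA dehydrogenase, at 347 bp in a coding exon (147, rank 660). The nuclear hormone receptor gene nhr-49, whose product works with MDT-15, followed at −421 bp (146, rank 666), with 85.0 in replicate 1 and 64.9 in replicate 2. Another receptor gene, nhr-66, had a peak in its 5′ UTR (129, rank 876). The fatty acid elongase gene elo-1 (102), the acyltransferase gene acl-6 (99.7) and the acyl-CoA dehydrogenase gene acdh-9 (99.0) were near the end of the IDR list.

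By group, IDR start peaks were found at 1 of 15 other desaturase and elongation genes, 2 of 28 mitochondrial β-oxidation genes, 2 of 17 storage and lipolysis genes and 2 of 6 other regulators. They were found at 0 of 20 other acyl-CoA synthetase, 0 of 13 peroxisomal β-oxidation, 0 of 9 fatty acid binding and 0 of 5 phosphatidylcholine synthesis genes. The median percentile of the strongest pooled start peak ran from 29.0 for acyl-CoA synthetases to 91.2 for phosphatidylcholine synthesis genes, and it was 73.6 over all 113. Of genes without an IDR start peak, the highest pooled peaks were at pcyt-1 (88.7), lbp-9 (84.1), acs-1 (81.1), ech-2 (80.2) and mboa-2 (79.9), all below the 89.8 of fat-6. IDR body peaks were found at 6 of the 113 genes (5.31%, against the 2.65% of all genes given above), namely acs-13, acs-18, acdh-1, lipl-4, pmt-2 and nhr-66.

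**Figure D4:**
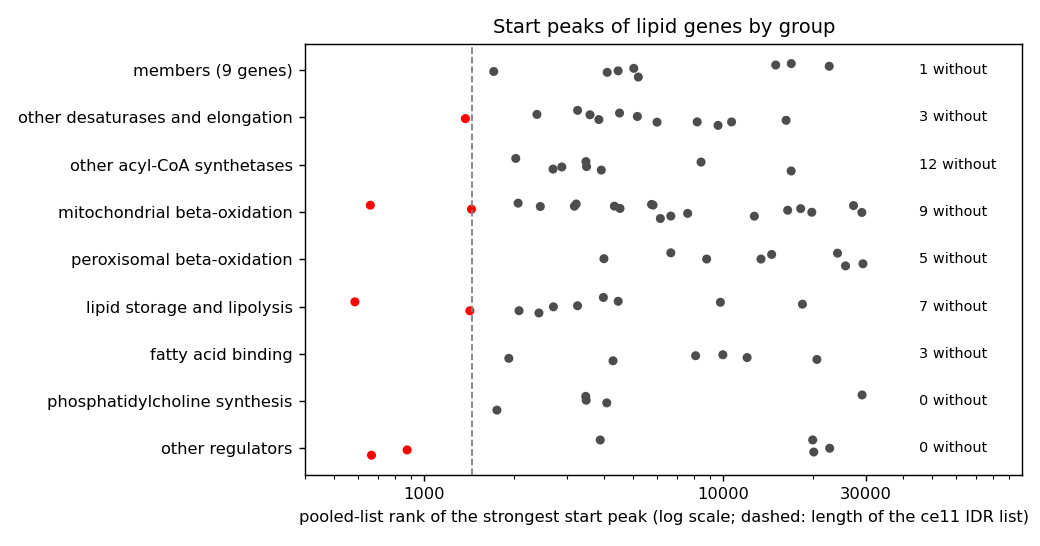
Rank in the pooled list (log axis) of the strongest start peak of each gene, for the 9 members and for 8 groups of other lipid genes, with genes that have a ce11 IDR start peak in red, the length of that list dashed, and the number of genes without a pooled start peak at the right. The 7 red points lie in 4 groups, and the member nearest to the line is fat-6 at rank 1707.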

How the data were processed

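The authors deposited narrowPeak lists. The IDR list derives, per the deposited file records, from both replicate lists and the pooled list. Those lists derive from alignments and from a further file, which the records also name for control-normalized tracks. Not given in the sources used here: peak caller, aligner, IDR threshold and handling of multiply mapping reads. The deposited signal (column 7) ranked peaks within a list, and the deposited −log10 q-value (column 9, by narrowPeak convention) was converted to q.

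Gene models were those of Ensembl release 115 on WBcel235, the assembly of ce11, and bases came from the RefSeq copy of that assembly. Coordinates are 1-based, and none was converted between builds. The ce10 IDR list was used through the matching given above, and the other ce10 lists were not used. The matching tolerance of 0.001% and the region past the 3′ end were chosen after the peaks were seen. A first tolerance of 0.2% gave 905 ce11 IDR peaks 1 partner, 529 more than 1 and 7 none, and gave the fat-6 start peak 3. Assignment of summits to genes, with Python 3.11.15 and pandas 2.3.3, was tested on simulated data. The alignment of fat-6 to fat-7 used Biopython 1.88, and figures used matplotlib 3.10.9.

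The members, gene lists, motifs and alternatives were chosen with earlier results of these data known. Of 114 other lipid symbols 1 found no match. Named genes are the 9 members, every other lipid gene with an IDR start peak, the 5 next by pooled rank, and genes whose starts lie nearest to a member's peak. The genes with an IDR peak in the body or past the 3′ end were named after their values were seen.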

Additional observations from a re-analysis of the deposited data

How the results depend on the processing

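No member had an IDR start peak with windows of 500 bp upstream or of 2000 bp upstream to 1000 bp downstream, with any overlap, the nearest or the outermost start only, the 720 strongest IDR peaks, or the 1386 peaks covered to 50% in each replicate. With the first 2232 pooled peaks in place of the IDR list the count was 1 at a start and 1 in a body (3.95% of all genes). Leaving out each replicate, with the first 1441 peaks of the other in place of the IDR list, gave 0 to 1 for both (fat-6, without replicate 2). Any overlap with the body, added after the data were seen, gave 1, while the body without the start window gave 0. A pooled start peak was found in 5 members with the 500 bp window (24.2% of all genes) and in 8 with either replicate left out. The median percentile was 78.4 with the 500 bp window, 85.3 with the wide one and 81.9 to 83.7 with a replicate left out, against 87.3. Of other lipid genes, 15 had an IDR start peak with the wide window, 3 among the 720 strongest peaks and 12 with 2232 pooled peaks, against 7, and 5 with either replicate left out. These windows and lists hold more or fewer bases or peaks by construction. No paired analysis was possible because there was 1 group of samples. Without read numbers, the depth needed to tell a low peak from background is unknown.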
